A study of Trachinotus blochii with 12 samples.

Results

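Of the 18490 gene models measured in Trachinotus blochii, the golden pompano, a fish farmed in the sea, 95 were higher in the brain of hypoxia-tolerant than of hypoxia-intolerant fish while their liver values differed little between the same groups. A gene model is a predicted gene, known in the deposited data only by an identifier. The 95 were chosen by their values. For each tissue, the difference was taken as the mean log2(value + 1) of the tolerant libraries minus that of the intolerant libraries. A member had a brain difference of at least 0.5, all 3 tolerant brain values above all 3 intolerant brain values, a brain mean over 6 libraries from 1 to below 200, a liver difference below 0.25 in size and a liver mean below 400. The brain level left 13888 gene models, the liver limits left 7904 of these, the brain difference left 130 and the absence of overlap left 95.

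Tolerant (Tol) fish had stayed normal through 24 h of severe hypoxia, while intolerant (Intol) fish floated, lost their balance and were dying within 1 h. All were 2 months old and fasted in 3 tanks of 80 fish, in water held at 0.9 ± 0.1 mg/L of oxygen by pumping in nitrogen. The oxygen was lowered over 2 h. For each status 14 fish per tank were sampled, 42 in all. Brain and liver RNA were sequenced in 3 libraries for each status, which gave 4 groups: Tol brain, Intol brain, Tol liver and Intol liver. Status and time under hypoxia and fasting cannot be told apart, no library used here came from fish at normal oxygen, and the number of fish in a library is not stated. Any p-value therefore measures the spread between these libraries, which may be technical. In whole tissue, more cells of a type and more RNA per cell cannot be told apart either.

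The brain depends on a steady supply of oxygen, and in vertebrates a fall in oxygen is met by changes in transcription, in part through hypoxia-inducible factors, and by changes in how much energy neurons use. The title of the study names glucose and lipid metabolism. The identifiers were not matched to gene names here, so neither the function of a member nor genes of these pathways could be described, and the tissue labels could not be checked against marker genes. Brain and liver libraries were clearly separate, with correlations of 0.453 to 0.473 across all gene models for the 36 brain-liver pairs. Among brain libraries the 5 pairs with Intol brain replicate 3 correlated at 0.975 to 0.983, and the 10 other pairs at 0.982 to 0.992, so that library stood somewhat apart. Values were read as FPKM, that is, fragments per length of the gene model and per size of the library. They summed to 366577 to 373167 in Tol brain, 360680 to 371084 in Intol brain, 590988 to 611601 in Tol liver and 581739 to 622240 in Intol liver, which are not read counts. The sequencing depth is unknown.

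Summed over the 95 members, the values were 1477, 1259 and 1389 FPKM in Tol brain replicates 1, 2 and 3, against 790.8, 921.7 and 829.9 FPKM in Intol brain replicates 1, 2 and 3. The median member had 7.05, 5.63 and 6.36 FPKM in the Tol brains and 2.88, 4.45 and 4.01 FPKM in the Intol brains. These sums and medians did not overlap between the groups, as the choice of the members required, and they describe the list without testing it. In liver the members summed to 196, 211 and 227 FPKM in Tol and to 269, 205 and 188 FPKM in Intol, and the Tol values lay inside the Intol range. Over all 7904 gene models within the level and liver limits, the summed brain values were 122545, 121959 and 122567 FPKM in Tol and 119947, 120845 and 123317 FPKM in Intol.

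**Figure D1:**
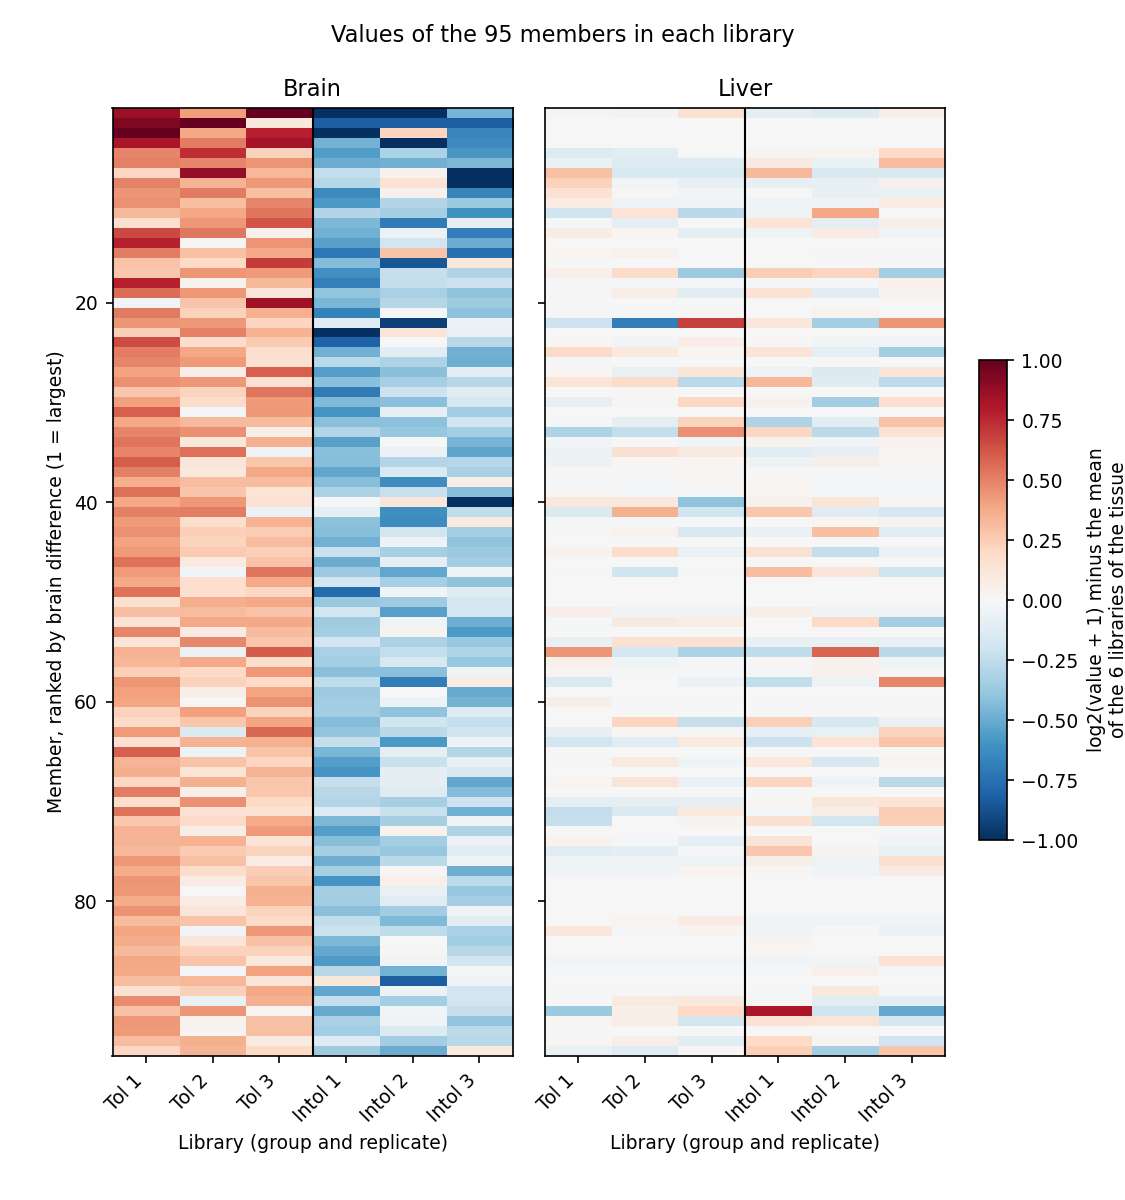
Each row is 1 of the 95 members, ranked by its brain difference, and each column is 1 library, brain at the left and liver at the right, with Tol left of Intol. Colours give log2(value + 1) minus the mean of the 6 libraries of that tissue, from -1 (blue) to 1 (red). In every row the Tol brain values lie above the Intol brain values, which the choice of the members fixed. Where the gap is narrow, the colours of the nearest Tol and Intol libraries can be nearly alike. The liver colours are pale in most rows, where the liver values are near 0.

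Most members differed modestly in brain. The brain difference ranged from 0.50 to 1.77 with a median of 0.62, and its quartiles were 0.56 and 0.72. Only 4 members reached 1, 18 reached 0.75 and 50 reached 0.6. As a ratio of group means, Tol over Intol ranged from 1.43 to 8.85 with a median of 1.69, for the 94 members with a mean above 0 in Intol brain, and 16 members had a ratio of at least 2, counting the member listed at 0 in all Intol brains. Over the 14146 gene models of the brain test the median difference was 0.04, with quartiles of -0.07 and 0.15. A higher value in all 3 Tol than in all 3 Intol brains was found for 15.6% of the 7904 gene models within the level and liver limits and for 15.0% of the brain test. The size of the difference, rather than the separation of the groups, was therefore the narrower part of the rule, since 1230 gene models met every condition but the size and 130 every condition but the separation.

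The gap between the groups was often small. The lowest Tol value divided by the highest Intol value had a median of 1.21 and an upper quartile of 1.36 over the 94 members with an Intol value above 0. It was at least 1.2 for 50 of the 95 members and at least 1.5 for 11. The narrowest gap, a ratio of 1.01, belonged to a member with 10.11, 8.53 and 9.11 FPKM in Tol brain and 3.73, 8.46 and 3.62 FPKM in Intol brain, where Intol replicate 2 nearly reached the Tol values. The 3 members just inside the limit of 0.5 had brain differences of 0.5003, 0.5018 and 0.5019, and the nearest gene models left out had 0.4980, 0.4963 and 0.4935. The median coefficient of variation between replicates was 14.2% in Tol brain and 19.7% in Intol brain for the members. For the gene models within the limits it was 7.89% and 9.59% in the same groups. The wider spread was not particular to the members. The 66 gene models lower in Tol brain by the same limits had 20.8% in Tol and 14.8% in Intol brain. The members were of lower level, with a median brain mean of 4.95 FPKM against 7.73 FPKM within the limits. The gene models lower in Tol brain had a median of 9.14 FPKM. The part of level in the spread was not tested.

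The brain contrast was also fitted over the whole table with limma, a linear model that shares the estimate of spread across genes, on log2(value + 1). Over 14146 gene models, 1 was higher and 2 were lower in Tol at a Benjamini-Hochberg adjusted p under 0.05, and the share called higher was 0.00707%. After median-ratio scaling of the libraries, and after quantile normalization, the counts became 4 higher and 4 lower. Of the 95 members 94 passed the filter of at least 1 FPKM in at least 3 libraries, and 1 was called. The adjusted p of the 94 had a median of 0.149 and ran to 0.318 (limma). Since the rule used this contrast, these values are given as a description. In a fit that took its estimate of spread from all 12 libraries, 34 of 94 members were called, where 0.553% of 14817 gene models were called higher. The members were chosen on this contrast, and 57 of the 95 have liver means below 0.1 FPKM, where liver libraries can differ little on the log2(value + 1) scale, so nothing is read from that share.

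The called member, Trachinotus_GLEAN_10018571, had 19.86, 19.6 and 18.9 FPKM in Tol brain, against 9.39, 9.5 and 9.73 FPKM in Intol brain. Its groups were far apart and its replicates close, with a lowest Tol value 1.94 times the highest Intol value. In liver it was listed at 0.04, 0 and 0 FPKM in Tol and at 0.16, 0.04 and 0.35 FPKM in Intol. Its liver difference of -0.22 is the second largest in size among the members, although all 6 liver values were below 1 FPKM. Its adjusted p of 0.0055 (limma) was the smallest of the members and is the reason it is named. The call was lost without replicate 1 of Tol brain, replicate 2 of Tol brain or replicate 1 of Intol brain, each left out alone, with adjusted p of 0.103, 0.0651 and 0.0944 (limma).

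The other named member, Trachinotus_GLEAN_10018463, had the largest brain difference, 1.77 ± 0.26 (SE). It had 6.57, 4.6 and 9.83 FPKM in Tol brain and 1.02, 0.91 and 2.03 FPKM in Intol brain, a 5.30-fold ratio of means. The Tol values themselves were far apart, and the adjusted p was 0.0842 (limma), so it did not pass the test. The adjusted p was 0.0154 with the replicate number as a block and 0.0155 with all 12 libraries in the fit (limma). The replicate numbers were not taken as pairs, and nothing was read from the fit of all 12 libraries above. The member was picked for the size of this same contrast, so these p-values are given as a description. Its liver values were 0.51, 0.45 and 0.64 FPKM in Tol and 0.39, 0.35 and 0.55 FPKM in Intol, which overlapped.

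**Figure D2:**
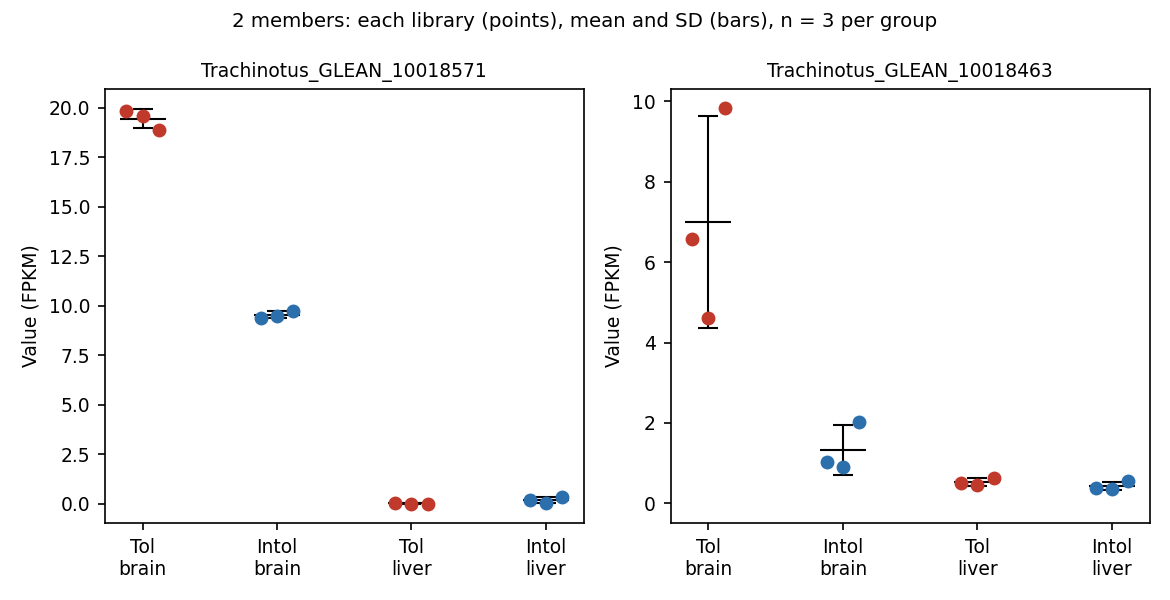
Values in FPKM of Trachinotus_GLEAN_10018571 (left) and Trachinotus_GLEAN_10018463 (right) in the 3 libraries of Tol brain, Intol brain, Tol liver and Intol liver, each point a library and bars the mean and SD (n = 3). The Tol brain points of the first lie close together between 18.9 and 19.86, those of the second between 4.6 and 9.83.

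The other 3 members with a brain difference of at least 1 were all of low level. The member ranked second had 2.38, 3.73 and 0.9 FPKM in Tol brain and was listed at 0 in all 3 Intol brains, so no ratio is given for it; it is the member that did not pass the filter. The next in rank had 7.12, 3.76 and 5.24 FPKM in Tol brain and 0, 3.24 and 1.31 FPKM in Intol brain. The one after it had 2.64, 1.94 and 2.68 FPKM in Tol brain and 0.49, 0 and 0.33 FPKM in Intol brain, and the highest ratio of means, 8.85. All 3 were listed at 0 in the 6 liver libraries. In all, 5 members were listed at 0 in at least 1 Intol brain library. The rule allowed no member at 0 in a Tol brain library, since each Tol value had to exceed each Intol value. Among the 7904 gene models within the level and liver limits, 19 were listed at 0 in at least 1 Intol brain library and 9 in at least 1 Tol brain library.

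Low brain levels were frequent among the members. The brain mean had a median of 4.95 FPKM and quartiles of 2.64 and 12.4, and 48 of 95 members were below 5 FPKM. Among the gene models within the level and liver limits the median was 7.73 FPKM and 36.5% were below 5. Members made up 1.46% of the gene models with a brain mean of 1 to 2 FPKM, 1.78% of those from 2 to 5, 1.02% of those from 5 to 20 and 0.771% of those from 20 to 200. For the list with the opposite sign, 66 gene models lower in Tol brain by the same limits, these shares were 0.972%, 0.809%, 0.660% and 1.13%. The median brain mean of that list was 9.14 FPKM. The difference between the lists was not tested.

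The most abundant member had 193.92, 174.31 and 198.59 FPKM in Tol brain, against 94.45, 115.28 and 109 FPKM in Intol brain, a ratio of means of 1.78. Its groups were well apart, and in liver it was at most 0.08 FPKM in any library. The next had 122.98, 92.9 and 111.57 FPKM in Tol brain and 72.26, 88.32 and 68.94 FPKM in Intol brain, where Tol replicate 2 and Intol replicate 2 lay closest together. Following it, a member had 98.66, 73.24 and 93.71 FPKM in Tol brain and 57.22, 69.09 and 55.87 FPKM in Intol brain, with the same order of libraries, and was listed at 0 in every liver. In all, 13 members had a brain mean of at least 20 FPKM, of which 7 had a liver mean below 0.1 FPKM and 6 a liver mean of at least 1 FPKM.

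The replicate order just described recurred. Tol replicate 2 was the lowest Tol brain and Intol replicate 2 the highest Intol brain for 29 of the 95 members, or 30.5%, and for 7 of the 13 members with a brain mean of at least 20 FPKM. Over all gene models within the limits this order was found for 11.9%, and over those of at least 20 FPKM for 12.6%. The highest Tol value lay in replicate 1 for 53.7% of the members, against 36.6% of the gene models within the limits. The lowest Intol value lay in Intol replicate 1 for 46.3% of the members, against 32.8% of those gene models. The highest Intol value lay in Intol replicate 2 for 52.6% of the members, against 34.3%. In the opposite list Tol replicate 1 was the lowest Tol brain for 51.5% and Intol replicate 2 the lowest Intol brain for 54.5%. There too, Tol replicate 1 was most often farthest from Intol and Intol replicate 2 most often nearest to Tol. The Tol brain nearest to Intol was most often replicate 3 there, the highest for 54.5%. The pattern was thus in part shared with that list. The part of single libraries in this pattern was not tested.

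Intol brain replicate 3, the library that stood apart, had the lowest Intol value for 30.5% of the members and the highest for 35.8%. Over the gene models within the limits it had the lowest for 30.6% and the highest for 43.9%. Without it the rule chose 149 gene models, of which 79 were among the 95. Without Tol brain replicate 2 or Intol brain replicate 2 it chose 175 in each case, with 88 and 81 of the 95 among them, and without Tol brain replicate 1 it chose 78, with 71. A rule with fewer libraries has fewer values to keep apart. With each of the 12 libraries left out in turn, 37 of the 95 met the rule every time.

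**Figure D3:**
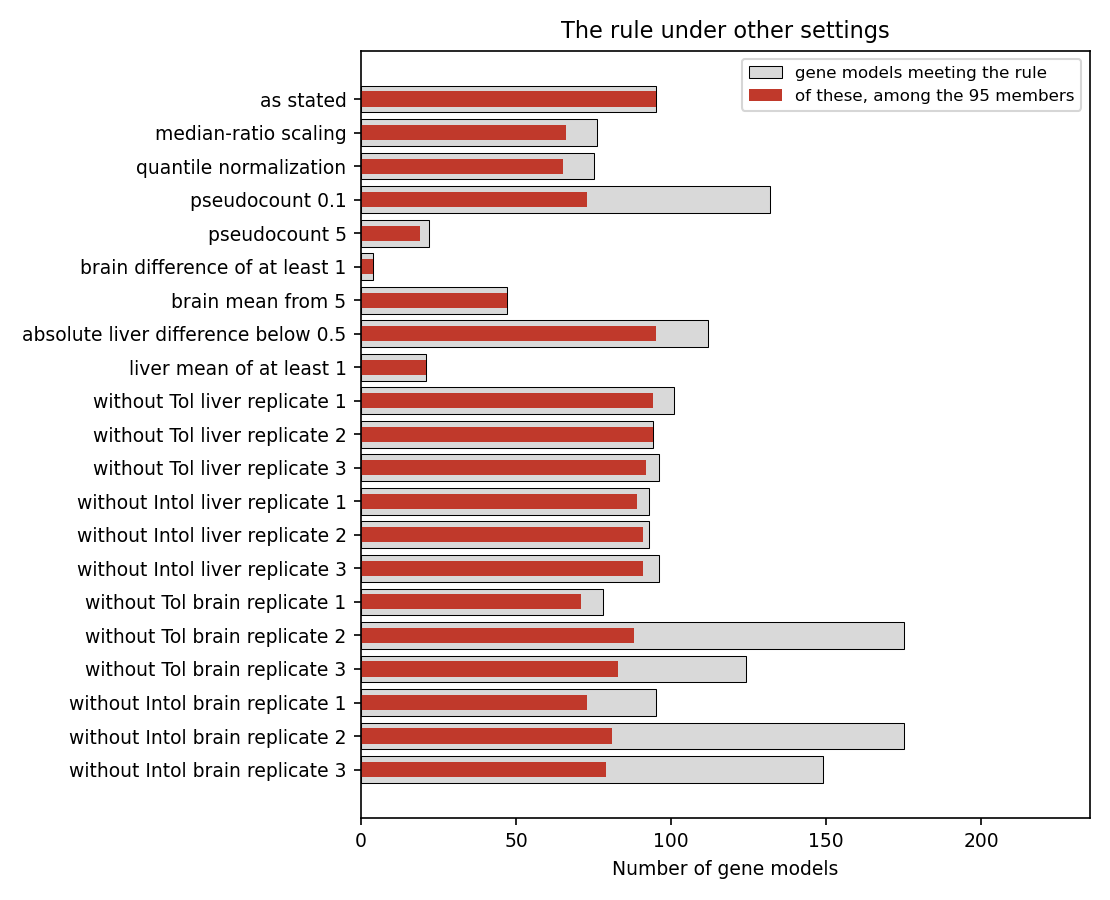
Number of gene models that met the rule as stated and under each other setting (grey bars, from 0), and how many of these were among the 95 members (red bars). The count ranged from 4 with a brain difference of at least 1 to 175 without Tol or Intol brain replicate 2.

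The difference was also read in libraries that took no part in the choice. The rule was applied without both brain and both liver libraries of a replicate number, and the held-out Tol brain library was then compared with the held-out Intol brain library. The number was used here only to name libraries, and whether it marks a tank or shared fish is not stated in the labels. With replicate 1 held out, 76 gene models were chosen, 51 of them members, and the held-out difference had a median of 0.57, with 89.5% above 0, against a median of 0.07 and 60.7% above 0 for all 14146 gene models of the brain test. With replicate 2 held out, 248 were chosen, 77 of them members, and the median was 0.10 with 65.7% above 0, against 0.04 and 58.9% for all. With replicate 3 held out, 178 were chosen, 70 of them members, and the median was 0.21 with 72.5% above 0, against 0.01 and 51.7% for all.

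A held-out difference of at least 0.5, the size the rule asks for, was found for 55.3%, 12.5% and 28.7% of the gene models chosen without replicates 1, 2 and 3, in that order. Over all gene models of the brain test, which were not held to the level and liver limits, the shares were 6.28%, 2.91% and 2.88%. The quartiles of the held-out difference were 0.29 and 0.88, -0.06 and 0.28, and -0.02 and 0.54 for the chosen gene models. For all gene models they were -0.10 and 0.23, -0.08 and 0.16, and -0.13 and 0.14. The chosen gene models were thus more spread, and the part of this spread in the shares was not tested. In each case the median of the chosen gene models was above that of all gene models, by the most with replicate 1 held out. Replicate 1 also held the highest Tol value for 53.7% and the lowest Intol value for 46.3% of the members. Each comparison rests on 1 Tol and 1 Intol library, and gene models are not replicates of a status. The shares therefore describe these libraries without testing the difference.

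**Figure D4:**
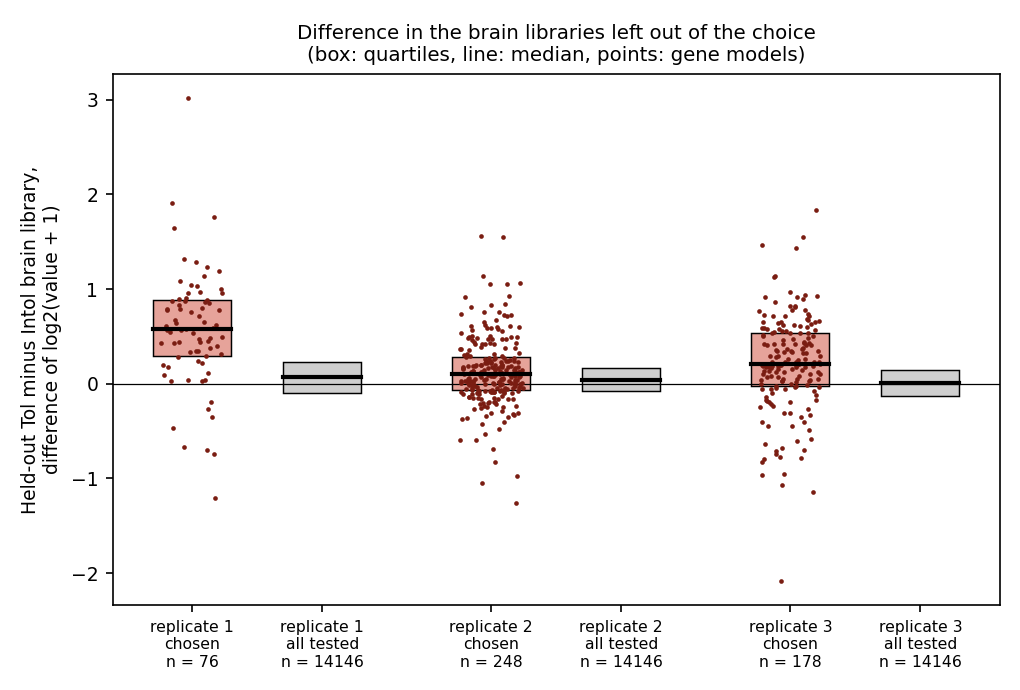
Difference of log2(value + 1) between the held-out Tol and Intol brain library, for the gene models chosen without that replicate (red box and points) and for all 14146 gene models of the brain test (grey box). Boxes are quartiles and lines medians. The chosen medians are 0.57, 0.10 and 0.21, and those of all gene models 0.07, 0.04 and 0.01.

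The liver limit was met mostly by gene models with little signal in liver. Of the 95 members, 57 had a liver mean below 0.1 FPKM, 26 of them listed at 0 in all 6 livers, 17 had a mean from 0.1 to below 1 and 21 had a mean of at least 1 FPKM. On the log2(value + 1) scale values below 0.1 can hardly differ by 0.25, so for these members the liver comparison says little. A liver mean below 0.1 FPKM was found for 60.0% of the members, against 33.7% of the gene models within the level and liver limits and 34.8% of the opposite list. Members made up 2.14% of the gene models within the limits that had a liver mean below 0.1 FPKM and 0.672% of those with at least 1 FPKM. Without the limit on the liver difference the rule would have chosen 134.

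The 21 members with a liver mean of at least 1 FPKM are those for which a small liver difference was measured on expressed values. Their liver differences ran from -0.22 to 0.21 with a median of -0.04, and 8 of the 21 were above 0. For none of the 21 did the Tol and Intol livers separate. The rule kept only liver differences below 0.25 in size, which bounded their range and favours overlap of the livers. No share of overlapping livers among other gene models was set beside this count. The overlap therefore describes the 21 members without testing them. It does not hold for every member of lower liver mean. The member ranked 5 by brain difference had 0.55, 0.58 and 0.7 FPKM in Tol liver, all below 0.73, 0.73 and 0.94 FPKM in Intol liver. How many such members separated in liver was not counted. The brain differences of the 21 ran from 0.50 to 0.83. The largest of these belonged to a member with 18.85, 19.78 and 22.01 FPKM in Tol brain and 12, 11.54 and 9.43 FPKM in Intol brain. Its livers had 6.06, 7.89 and 5.7 FPKM in Tol and 6.83, 9.6 and 7.06 FPKM in Intol and overlapped.

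The member with the highest liver mean had 59.42, 80.45 and 88.73 FPKM in Tol liver and 136.1, 66.9 and 53.83 FPKM in Intol liver. The Intol livers spread widely, so its liver difference of -0.07 averages unlike libraries. In brain it had 12.4, 13.85 and 10.08 FPKM in Tol and 6.69, 9.74 and 8.32 FPKM in Intol, one of the narrower gaps. A steadier case had 32.85, 31.12 and 39.02 FPKM in Tol liver and 26.73, 30.89 and 40.77 FPKM in Intol liver. Its brain values were 16.37, 15.72 and 15.7 FPKM in Tol, against 8.99, 9.09 and 10.71 FPKM in Intol.

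**Figure D5:**
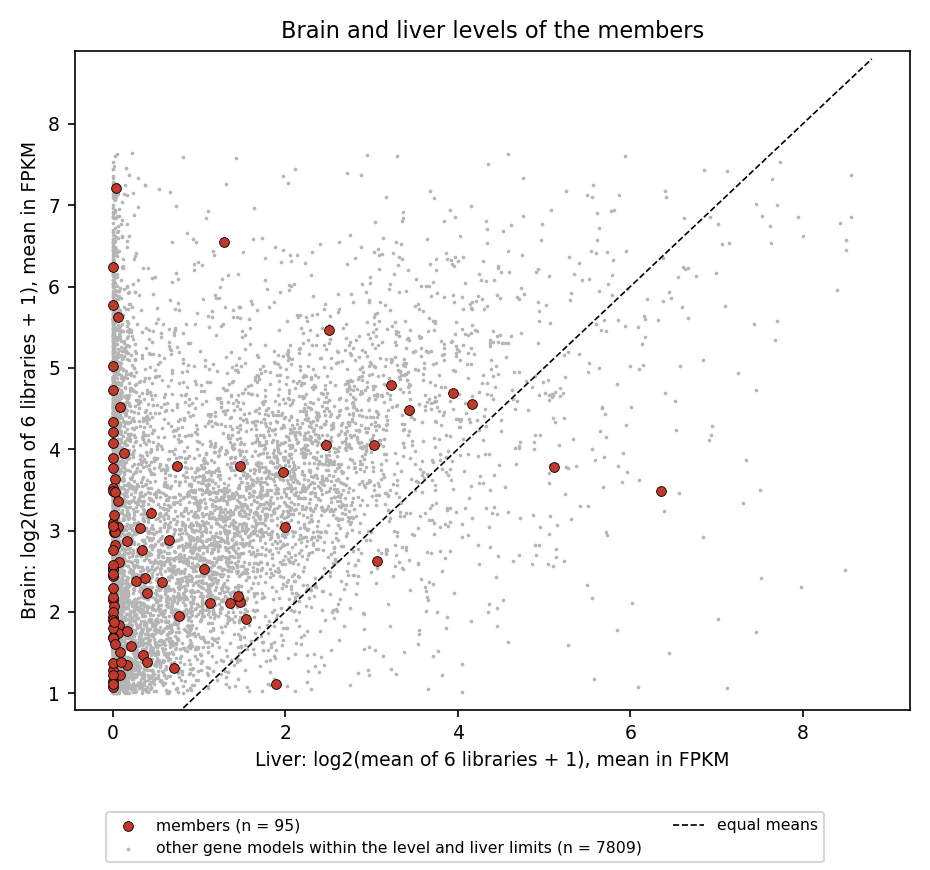
Brain level against liver level, each as log2 of the mean of 6 libraries plus 1, for the 95 members (red) and the other gene models within the level and liver limits (grey), with a dashed line at equal means. Many members lie at the left edge, with liver means near 0, and 4 lie below the line, with a higher mean in liver.

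Brain and liver levels were compared in a limma fit over all 12 libraries with the 4 groups as means. Of 94 members tested, 89 were higher and 4 lower in brain than in liver at an adjusted p under 0.05, or 94.7% and 4.26%. Among all 14817 gene models tested 82.1% were higher and 13.2% lower in brain, and among the 7871 within the level and liver limits 93.0% were higher and 4.46% lower, so the shares of the members were close to those of gene models with the same limits. The brain limit of the rule sets a floor in brain only, and a member that passed the filter through brain values alone had to differ. The median difference of brain minus liver was 1.94 for the members, 1.88 within the limits and 1.51 for all gene models tested. Trachinotus_GLEAN_10018571 had a difference of 3.75 ± 0.06 (SE).

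The direction between tissues depended on the scaling, for expressed members and for all gene models tested. For this contrast the scaling ran over all 12 libraries, while for the rule and the brain fits it ran within each tissue. Of the 21 members with a liver mean of at least 1 FPKM, 16 were higher and 4 lower in brain in the values as deposited (limma, adjusted p under 0.05). After median-ratio scaling, which put the median difference of all gene models at 0.17 in place of 1.51, 3 were higher and 14 lower. After quantile normalization, with a median of -0.13, 3 were higher and 15 lower. No share of other gene models with a liver mean of at least 1 FPKM was set beside these counts. They are therefore not read as a trait of the members. Of all members, 65 of 85 tested were higher and 14 lower after median-ratio scaling, where 48.6% of all gene models tested were higher and 39.1% lower. After quantile normalization 61 of 90 were higher and 19 lower, where 41.0% of all were higher and 47.1% lower. Among gene models within the limits 67.6% and 56.9% were higher in brain under these scalings, against 76.5% and 67.8% of the members. Lower in brain were 22.2% and 31.4% within the limits, against 16.5% and 21.1% of the members.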

How the data were processed

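Per the labels' protocols, TruSeq libraries gave paired reads of 125 bp (Illumina HiSeq), which were cleaned of adaptors, uncertain bases and poor reads before assembly with Trinity. How reads were aligned and counted, and on which build and annotation, was not given in the sources used here. The deposited values, 1 per gene model with 2 decimals, name no unit and were read as FPKM made by the authors, being fractional and of unequal sums per library, so no counting error is given. A value at 0 can be a failed estimate. The file of Intol brain replicate 2 also held 1 block under the header of Intol brain replicate 1. Its 18490 values equalled those of that library's own file, and it was left out.

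The members, the lists and the tests were chosen with earlier results of these data known. Members were found by the stated rule. limma 3.58.1 (R 4.3.3) was fitted on log2(value + 1) with variance trend, robust moderation and group means, over gene models of at least 1 FPKM in at least 3 of the libraries fitted, with Benjamini-Hochberg adjustment over all of them and calls at an adjusted p under 0.05. The steps were tested on simulated data. The named members are the member with the smallest adjusted p in brain and, of the others, the member with the largest brain difference. Alternatives were other scalings, pseudocounts of 0.1 and 5, other filters and limits, a fit without trend, a replicate block, each tissue fit within a status, all 12 libraries in 1 brain fit and each library left out. Scalings were made within each tissue for the rule, the brain fits and the held-out differences, and over all 12 libraries for the tissue fits. Python 3.11.15, NumPy 2.4.6, pandas 2.3.3 and matplotlib 3.10.9 were used.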

Additional observations from a re-analysis of the deposited data

How the results depend on the processing

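The number of gene models meeting the rule, 95, became 22 with a pseudocount of 5, 4 with a brain difference of at least 1, 47 with a brain mean from 5 FPKM and 21 with a liver mean of at least 1 FPKM. It ranged from 78 to 175 with each library left out. After median-ratio scaling it was 76, with 66 of the 95 among them, and after quantile normalization 75, with 65, and 59 members met the rule under both. The pseudocounts of 5 and 0.1 kept 19 and 73 of the 95. The brain calls over all gene models, 3, became 8 after either scaling, 5 with a pseudocount of 0.1, 12 with a mean of at least 5, 1 without trend and robust moderation and 122 with all 12 libraries, and ranged from 0 to 25 with each brain library left out. Leaving out Tol brain replicate 1 or 2 or Intol brain replicate 1 gave 0 (limma, 1296, 2061 and 1431 at an unadjusted p under 0.05). Members called higher in Tol brain, 1, became 3 after either scaling, 2 with a pseudocount of 0.1, 6 with a mean of at least 5 and 34 with all 12 libraries, and ranged from 0 to 6, the highest without Intol brain replicate 2. The last count was added after the data were seen. The cause was not tested. The adjusted p of Trachinotus_GLEAN_10018571 was 0.103, 0.0651 and 0.0944 (limma) without those 3 libraries, with a difference of 0.94 to 0.98 over all left-out libraries. Members higher in brain than liver, 89, fell to 28 of 32 with a mean of at least 5 (3434 of 3805 within the limits). With each library left out they ranged from 87 to 90. Members lower in brain, 4, became 14 after median-ratio scaling and 19 after quantile normalization. With a difference of at least 1 they were 2, against 163 of 7871 within the limits. They stayed at 4 with each library left out. The held-out difference, 0.29 as a mean of 3 medians, was 0.26 after median-ratio scaling. It was 0.35 and 0.26 with pseudocounts of 0.1 and 5, which change the scale. Its SD over the 3 medians, 0.25, was nearly as large as the mean. That SD describes the spread between replicate numbers, not the moves between settings. These use the same libraries and were not tested. With replicate 2 held out, the median after median-ratio scaling was 0.06 with 57.4% above 0, against 49.4% of all gene models. With the replicate number as a block, 15 gene models were called in brain, 3 of them members, and Trachinotus_GLEAN_10018463 had an adjusted p of 0.0154 (limma). The deviations of same-numbered Tol and Intol brains correlated at -0.08, 0.13 and 0.18. Tol brain replicates 2 and 3 correlated best with their own number and replicate 1 did not, so the numbers were not taken as pairs. The deviations of same-numbered liver and brain correlated at 0.03, 0.01 and 0.05 in Tol and at 0.05, 0.09 and 0.13 in Intol. A block by number spans both statuses, so it does not pair the tissues within a status. With it, the tissue fit called 89 of 94 members higher and 4 lower in brain, and 7320 and 346 of 7871 within the limits. Trachinotus_GLEAN_10018463 has no value with a mean of at least 5, which it does not reach. Unknown depth limits what can be said of members below about 1 FPKM.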

Other observations

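Gene models are numbered, and 4 of the 95 members, in 2 consecutive pairs, had a member at the number directly below or above their own, or 4.21%. Over all 18490 gene models 0.930% had a member directly below or above. In the opposite list, 2 of 66, a single pair, had one of that list directly below or above. In the first pair the brain values were 2.03, 2.66 and 3.19 FPKM in Tol and 0.98, 0.66 and 1.56 FPKM in Intol for the lower number, and 17.22, 15.26 and 15.02 FPKM in Tol and 10.64, 9.75 and 9.47 FPKM in Intol for the higher. In the second pair they were 20.78, 16.22 and 20.58 FPKM in Tol and 11.75, 15.34 and 10.6 FPKM in Intol for the lower number, and 10.06, 5.63 and 7.07 FPKM in Tol and 3.02, 4.48 and 4.56 FPKM in Intol for the higher. Whether consecutive numbers are neighbours on a chromosome, or share sequence, was not analysed here.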
